A study of Mus musculus with 4 samples.

Results

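The interferon-stimulated genes described here are Isg15, Usp18, Ifit1, Ifit2, Ifit3, Oasl2, Bst2, Irf1 and Irf7. They were taken by symbol, with every probe that the deposited table gives to one of these symbols, which made 9 genes of 24561 on the array and 11 probes of 55681. The cells were L1210, a mouse lymphocytic leukemia line (strain label DBA subline 212), infected with lentivirus, sorted for GFP as stably transfected cells and grown in medium with serum. L1210-Control carried the control transfection, L1210-Fbxw11a the full-length transcript of the F-box gene Fbxw11, L1210-Fbxw11c the transcript without exon 2, and L1210-Fbxw11d the transcript without exon 2 and the exon after it. They are called control, Fbxw11a, Fbxw11c and Fbxw11d cells from here on. The study asked how high levels of these Fbxw11 transcript variants alter gene expression in leukemia cells. RNA of each line, carrying the dye Cy3, was hybridised to 1 Agilent array, so there were no replicates and no test between lines was possible. The lines were obtained by sorting, and the sources used here do not state whether any was a pool or a clone. No agent that induces interferon was named in the labels for any line.

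Interferons are secreted when a cell senses viral or other foreign nucleic acid. They bind receptors on the same or neighbouring cells, and the receptor-bound kinases activate transcription factors. A complex that holds Stat2 and Irf9 binds the interferon-stimulated response element (ISRE) before target genes, and the gamma-activated site (GAS) is a further motif of interferon signalling. Fbxw11, also called β-TrCP2, is the substrate-recognition subunit of a ubiquitin ligase, and one of its known relatives, β-TrCP1, shares many of its substrates, among them the NF-κB inhibitor IκB and the interferon receptor chain Ifnar1. Many interferon-stimulated genes are transcribed at a low level in cells without added interferon.

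In the 300 bases around the transcription start (250 before it and 50 after it, RefSeq promoters, GRCm38.p6), 8 of the 9 genes had an entry, and Usp18 had none. The ISRE core was searched as GAAANNGAA on both strands, with overlapping matches allowed, and it was found for Isg15, Ifit1, Ifit3 and Bst2, 4 of the 8 genes and 4 of their 10 promoters, against 8.56% of all 32851 promoters in the table. The GAS motif TTCNNNGAA, which reads the same on both strands, was found for Ifit2, Bst2 and Irf1, 3 of the 8 genes and 3 of the 10 promoters, against 8.30% of all promoters. The stretches that hold the ISRE core are printed here because the core is what these 4 promoters have in common, with the core, or overlapping cores, in capitals. The Isg15 and Bst2 genes lie on the minus strand and all sequences are written along the gene.
Isg15, chr4:156200856-156200916: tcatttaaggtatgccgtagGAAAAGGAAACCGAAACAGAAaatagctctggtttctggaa
Ifit1, chr19:34640760-34640833: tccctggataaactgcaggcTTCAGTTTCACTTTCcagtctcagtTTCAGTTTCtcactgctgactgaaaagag
Ifit3, chr19:34583354-34583455: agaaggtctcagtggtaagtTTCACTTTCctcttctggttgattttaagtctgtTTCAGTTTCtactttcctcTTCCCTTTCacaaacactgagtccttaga
Bst2, chr8:71537568-71537622: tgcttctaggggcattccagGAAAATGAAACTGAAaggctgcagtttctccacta
The first matching base lay 78 bases before the start for Isg15, 109 for Ifit1, 155 for Ifit3 and 130 for Bst2. A match describes these letters and does not show that a factor bound there.

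Each probe was a 60-base oligonucleotide printed on 1 spot. The signals below are background-corrected intensities scaled by each array's 75th percentile to the control array, and each is followed where stated by the scanner software's error for that spot. A probe counted as measured where the software flagged it as well above background. Log2 ratios are variant line over control cells, and the SD given with them is the spread between spots of other probes of like brightness that were printed on 10 spots, which leaves out culture, sorting and RNA extraction. Precision is limited by having 1 array for each line. Slide 1 held 3 of the arrays and slide 2 held that of Fbxw11d cells only, so for this line slide and variant cannot be told apart. Its 75th percentile before scaling was 1.54 times that of the control array, and the other variant arrays stood at 1.01 and 1.08 times. The E1A spike-in RNAs differed from control cells after scaling by 0.13 ± 0.06 on the log2 scale in Fbxw11a cells (SD, n = 8 probes), by 0.15 ± 0.10 in Fbxw11c cells and by -0.59 ± 0.09 in Fbxw11d cells. In a bulk RNA sample, fewer cells that express a gene and less RNA per cell cannot be told apart.

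Of the interferon-stimulated genes, Ifit3 alone differed by 2-fold or more between any of the 4 lines. Of the 9 genes, 8 were measured on all 4 arrays and Ifit1 on none. The highest line exceeded the lowest by less than 2-fold for 7 of those 8 genes, from 1.096-fold for Bst2 to 1.72-fold for Irf7, and by 2.15-fold for Ifit3. Their median range was 1.33-fold, and among the 16249 genes measured on all 4 arrays the median was 1.28-fold and 8.39% reached 2-fold. In Fbxw11a cells 1 of 8 genes passed a 2-fold difference from control cells (Ifit3, higher), where 4.45% of all 17929 genes compared did, 2.43% higher and 2.02% lower. In Fbxw11c cells the count was 0 of 8 against 3.88% of 17734 genes (1.61% higher and 2.27% lower). In Fbxw11d cells it was 0 of 8 against 5.75% of 18437 genes (1.05% higher and 4.7% lower). The members' median absolute log2 ratio was 0.21, 0.26 and 0.091 in Fbxw11a, Fbxw11c and Fbxw11d cells, and that of all genes compared was 0.15, 0.15 and 0.21. Ratios above 0 were seen for 2, 4 and 6 of the 8 genes in the same order.

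**Figure D1:**
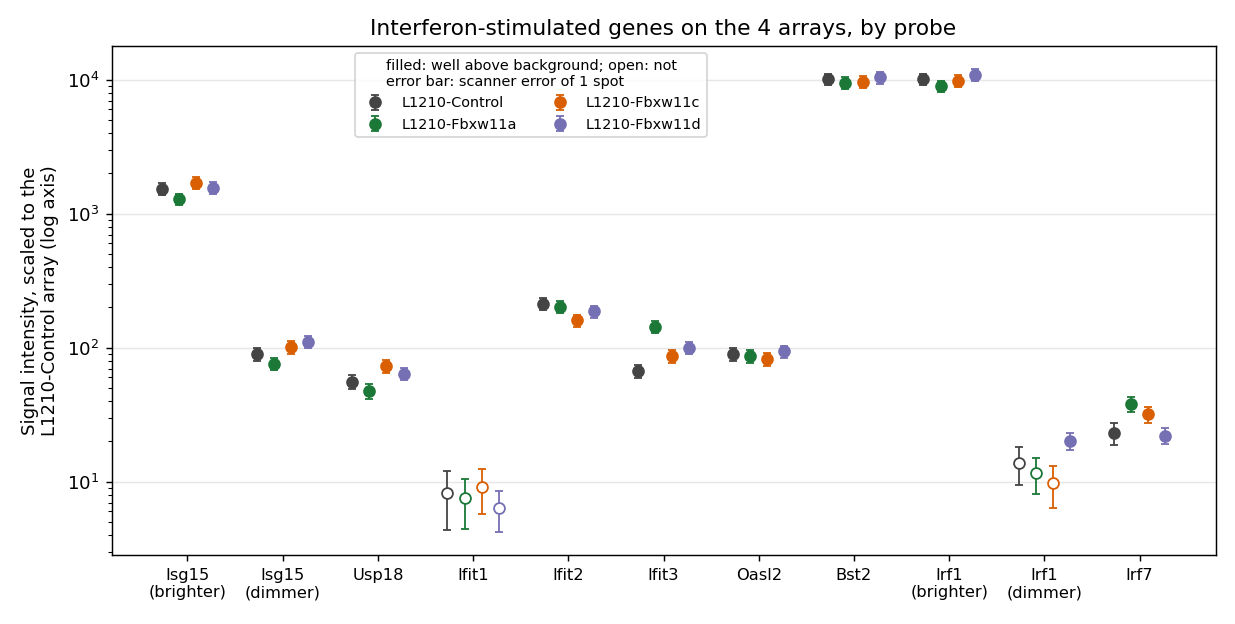
Signal of each of the 11 probes on the 4 arrays, scaled to the control array, on a log axis. Each point is 1 array, error bars are the scanner's error for 1 spot, and open points were not well above background. Bst2 and the brighter Irf1 probe lay between 8950 and 10919 in every line, Ifit3 was lowest in control cells and highest in Fbxw11a cells, and all 4 Ifit1 points were open.

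Ifit3, which belongs to the tetratricopeptide-repeat proteins that restrain viral RNA translation and join antiviral signalling complexes, was the one member past 2-fold. It gave 66.7 ± 7.62 in control cells, 143.5 ± 14.6 in Fbxw11a cells, 86.7 ± 9.23 in Fbxw11c cells and 99.4 ± 10.2 in Fbxw11d cells (± the error of 1 spot). Control cells were lowest and Fbxw11a cells highest, above the next line by 2.02 times the SD between spots. Control and Fbxw11c cells, and Fbxw11c and Fbxw11d cells, did not differ from each other beyond that SD. The log2 ratio was 1.11 in Fbxw11a cells (2.15-fold, SD between spots 0.25), 0.38 in Fbxw11c cells (SD 0.39) and 0.58 in Fbxw11d cells (SD 0.32). The call in Fbxw11a cells was lost with normexp background correction, where the ratio was 0.67, and with scaling on the spike-ins, where it was 0.97. With the spike-in scaling the ratio in Fbxw11d cells passed the threshold instead, at 1.16, on an array where the median of all genes moved to 0.61 under that scaling.

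The Ifit3 probe lies at chr19:34663105-34663164 of mm9 on the plus strand, from base 1630 of the transcript. Ifit3 has a near-identical neighbour listed as I830012O16Rik, and how far either probe reads both transcripts was not tested, so the Ifit3 value is uncertain in this respect. The brighter I830012O16Rik probe gave 19.8 in control cells, where it was not well above background, 52.7 in Fbxw11a cells, 25.2 in Fbxw11c cells and 26.7 in Fbxw11d cells. Fbxw11a cells were again highest, at least 2.66-fold above control cells, and Fbxw11c and Fbxw11d cells did not differ beyond the spread of spots. A further probe of I830012O16Rik was not measured above background in any line. Gm14446, another gene of the Ifit cluster, gave 6.88, 23.5, 10.6 and 14.6 in control, Fbxw11a, Fbxw11c and Fbxw11d cells, and was well above background in Fbxw11a and Fbxw11d cells. The Ifit1-like gene 2010002M12Rik gave 564, 458, 500 and 483 and was highest in control cells. These neighbours were chosen after their values were seen.

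Ifit1, which recognises foreign 5′ ends of RNA, was not well above background in any line, with 8.19, 7.52, 9.11 and 6.37 in control, Fbxw11a, Fbxw11c and Fbxw11d cells, and no fold is given. Ifit2, a further member of the family, was measured at 213 in control cells, 202 in Fbxw11a cells, 160 in Fbxw11c cells and 187 in Fbxw11d cells. Control cells were highest for Ifit2 and lowest for Ifit3. The log2 ratio of Ifit2 was -0.078 in Fbxw11a cells (SD between spots 0.14), -0.41 in Fbxw11c cells (SD 0.14) and -0.19 in Fbxw11d cells (SD 0.15), and none reached 2-fold. The ratio in Fbxw11c cells was larger than the spread between spots, 2.94 times its SD. In Fbxw11d cells the direction of Ifit2 turned with median centring and with scaling on the spike-ins. The Ifit1 and Ifit2 probes lie on chromosome 19 of mm9 with that of Ifit3, at chr19:34723796-34723855 and chr19:34650244-34650303.

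Isg15 is a ubiquitin-like modifier that is joined to newly made proteins in interferon-treated cells, and Usp18 is the protease that removes it and also dampens the type I interferon receptor. The brighter Isg15 probe (chr4:155573649-155573708 of mm9, minus strand) gave 1540 in control cells, 1285 in Fbxw11a cells, 1707 in Fbxw11c cells and 1559 in Fbxw11d cells. Fbxw11a cells were lowest and Fbxw11c cells highest, while control and Fbxw11d cells did not differ beyond the spread of spots. The log2 ratio was -0.26 in Fbxw11a cells (1.20-fold lower, SD between spots 0.092), 0.15 in Fbxw11c cells (SD 0.092) and 0.018 in Fbxw11d cells (SD 0.12). The direction turned in Fbxw11c cells with the spike-in scaling, and in Fbxw11d cells with quantile normalization and with the authors' normalized values.

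The dimmer Isg15 probe gave 89.6 in control cells, 75.8 in Fbxw11a cells, 101 in Fbxw11c cells and 110 in Fbxw11d cells. Fbxw11a cells were again lowest, 1.18-fold below control cells, but here Fbxw11d cells were highest, and these differences were near the spread of spots. The deposited position of this probe covers 20 of its 60 bases, and which transcript it reads is uncertain. Usp18 (chr6:121220874-121220933 of mm9) gave 55.9 in control cells, 47.5 in Fbxw11a cells, 72.7 in Fbxw11c cells and 63.7 in Fbxw11d cells. Its lines stood in the same order as those of the brighter Isg15 probe, from Fbxw11a cells up to Fbxw11c cells, but no pair of neighbours in that order differed beyond the spread of spots. The log2 ratios of Usp18 were -0.23 (SD 0.40), 0.38 (SD 0.35) and 0.19 (SD 0.38) in Fbxw11a, Fbxw11c and Fbxw11d cells, the last of which turned below 0 with normexp.

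Oasl2 belongs to the oligoadenylate synthetase-like proteins of the antiviral response. It was level, with 89.5 in control cells, 86.5 in Fbxw11a cells, 82.4 in Fbxw11c cells and 94.1 in Fbxw11d cells, and no line differed from another beyond the spread of spots. The log2 ratios were -0.049 (SD between spots 0.32), -0.12 (SD 0.34) and 0.072 (SD 0.31), and the direction in Fbxw11d cells turned with normexp. Its probe lies at chr5:115362168-115362227 of mm9, from base 3049 of the transcript.

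Bst2, or tetherin, holds budding viruses at the cell surface and also marks plasmacytoid dendritic cells. It had the smallest range of the 8 genes, with 10073 in control cells, 9488 in Fbxw11a cells, 9615 in Fbxw11c cells and 10402 in Fbxw11d cells. The log2 ratios of -0.086, -0.067 and 0.046 stood beside SDs between spots of 0.088, 0.082 and 0.11, so no variant line differed from control cells beyond that spread. The direction turned in Fbxw11c cells with median centring, and in Fbxw11d cells with quantile normalization and the authors' normalized values. The probe (chr8:74058603-74058662 of mm9, minus strand, from base 455 of the transcript) is shown as the one behind the steadiest signal.
Bst2 probe: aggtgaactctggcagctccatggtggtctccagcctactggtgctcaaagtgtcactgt

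Irf1 and Irf7 are the transcription factors among the members. Irf1 acts early after interferon-γ, and Irf7 drives interferon-α production once phosphorylated. The brighter Irf1 probe, to transcript NM_008390 at chr11:53590746-53590805 of mm9, gave 10121 in control cells, 8950 in Fbxw11a cells, 9866 in Fbxw11c cells and 10919 in Fbxw11d cells. Fbxw11a cells were lowest, with a log2 ratio of -0.18 (SD between spots 0.088), and the ratios in Fbxw11c and Fbxw11d cells were -0.037 (SD 0.082) and 0.11 (SD 0.11). The direction in Fbxw11c cells turned with median centring and with normexp. A probe to another transcript, NM_001159393, gave 13.8, 11.6, 9.80 and 20.1 in control, Fbxw11a, Fbxw11c and Fbxw11d cells and was well above background only in Fbxw11d cells, at least 1.11-fold above control cells.

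Irf7 was measured close to the background, with 23.1 ± 4.39 in control cells, 38.0 ± 4.79 in Fbxw11a cells, 31.8 ± 4.43 in Fbxw11c cells and 22.1 ± 3.04 in Fbxw11d cells (± the error of 1 spot). Fbxw11a cells were highest, but no pair of neighbours in the order of the lines differed beyond the spread of spots. The log2 ratio was 0.72 in Fbxw11a cells (SD between spots 0.49), 0.46 in Fbxw11c cells (SD 0.67) and -0.059 in Fbxw11d cells (SD 0.81). The last turned above 0 with quantile normalization, the authors' normalized values, median centring and spike-in scaling. At a threshold of 1.5-fold the ratio of Irf7 in Fbxw11a cells joined that of Ifit3. The probe is shown because its 60 bases are spread over 351 bases of mm9 (chr7:148450664-148451014, minus strand), which places it across an intron.
Irf7 probe: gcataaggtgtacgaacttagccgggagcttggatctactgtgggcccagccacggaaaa

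**Figure D2:**
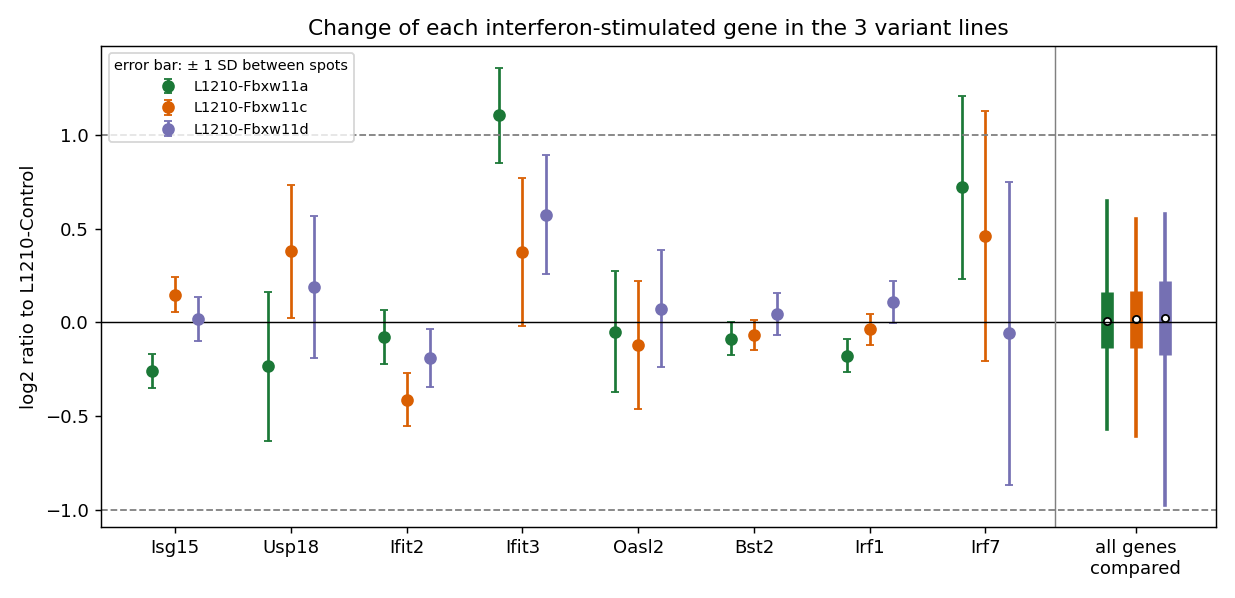
Log2 ratio to L1210-Control (y axis) of the 8 interferon-stimulated genes well above background, by variant line, with ± 1 SD between spots. At the right, thin lines span the 5th to 95th percentile and thick bars the 25th to 75th percentile of all genes compared, white points are medians, and dashed lines mark 2-fold. Ifit3 in Fbxw11a cells, at 1.11, is the one point past a dashed line.

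The variants were also set against each other. Of the 8 genes, 0 passed 2-fold between Fbxw11a and Fbxw11c cells, where 4.22% of all genes compared did. The count was 0 of 8 between Fbxw11d and Fbxw11a cells against 6.02% of genes, and 0 of 8 between Fbxw11d and Fbxw11c cells against 4.23%. The widest difference was that of Irf7, with a log2 ratio of -0.78 for Fbxw11d cells over Fbxw11a cells (SD between spots 0.73). Ifit3 gave 0.73 for Fbxw11a cells over Fbxw11c cells (SD 0.35), and Isg15 gave -0.41 in the same comparison on both of its probes (SD 0.098 for the brighter and 0.30 for the dimmer). The Isg15 difference was 4.19 times its SD on the brighter probe, while Usp18 in that comparison, at -0.61, was 1.77 times its SD.

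The 3 genes with the pattern most like that of Ifit3 were found over the 3 variant lines, by Euclidean distance of log2 ratios among the 16249 genes measured on all arrays. They were Ifitm6 at a distance of 0.083, Ptprf at 0.12 and 4933411G11Rik at 0.13. Ifitm6 had log2 ratios of 1.06, 0.33 and 0.52 in Fbxw11a, Fbxw11c and Fbxw11d cells.

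The rest of the interferon pathway was taken from a list of 114 genes, of which 110 were on the array, 3 of them found by a synonym, and Ifna6, Ifna9, Il28a and Ifi205 were not matched. In Fbxw11a cells 2 of 99 genes compared passed 2-fold against the 4.45% of all genes, with Oasl1 higher and Ifnb1 lower. In Fbxw11c cells 2 of 98 did against 3.88%, with Ifnb1 and Ikbke lower. In Fbxw11d cells 6 of 101 did against 5.75%, with Ifna7 and Ifitm1 higher and Ifnb1, Oas1a, Oas2 and Iigp1 lower. The median log2 ratio of these lists was -0.002, -0.032 and 0.049, beside 0.006, 0.017 and 0.022 for all genes compared.

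Among the ligands, Ifnb1, which encodes interferon-β, was seen in the control line alone. It gave 410 in control cells and 10.1, 4.03 and 2.70 in Fbxw11a, Fbxw11c and Fbxw11d cells, and only the control array measured it well above background. Control cells were at least 28.6-fold, 27.6-fold and 39.4-fold higher. With normexp the Ifnb1 folds were 6.06, 6.46 and 9.20, and as ratios of the measured signals without a filter on dim probes they were 40.8, 102 and 152, so the size of this difference rests on how dim signals are treated. The members' own ratios in these lines stand beside this value, with 1 of 8, 0 of 8 and 0 of 8 past 2-fold, and the member that passed, Ifit3, was higher in Fbxw11a cells, where Ifnb1 was not well above background. Ifna7, of the interferon-α cluster, gave 70.5, 69.0 and 62.8 in control, Fbxw11a and Fbxw11c cells and 144 in Fbxw11d cells, a log2 ratio of 1.03 there, and since interferon-α genes are near-identical copies this probe is uncertain. The ratio of Ifna7 was 0.50 with normexp, which ends the call. The other 10 ligands compared in Fbxw11a cells, the other 10 in Fbxw11c cells and the other 11 in Fbxw11d cells did not pass 2-fold on their brightest probes. A dimmer probe of Ifna2 gave 18.6 in control cells and 69.6 in Fbxw11c cells, a log2 ratio of 1.90 (SD between spots 0.61), where the brighter Ifna2 probe gave -0.084.

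None of the receptors and signal transducers passed 2-fold in any line. The counts were 0 of 5, 0 of 5 and 0 of 6 receptors in Fbxw11a, Fbxw11c and Fbxw11d cells. For transducers they were 0 of 9, 0 of 8 and 0 of 9 in the same order. With 4.45%, 3.88% and 5.75% of all genes compared past 2-fold, few or none would pass in lists this small. Ifnar1, the first chain of the type I receptor, gave 554, 607, 569 and 565 in control, Fbxw11a, Fbxw11c and Fbxw11d cells, and Ifnar2, the second, had log2 ratios of -0.16, -0.24 and -0.058 in the variant lines. Stat2 gave -0.12, 0.047 and 0.047 and Irf9 gave 0.16, 0.19 and 0.23, so neither of these partners in the ISRE-binding complex passed 2-fold.

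Of the nucleic acid sensors and adapters, 0, 1 and 0 of 16 passed 2-fold, beside 4.45%, 3.88% and 5.75% of all genes compared. At such shares few or none would pass in lists this small, so the counts do not set these genes apart. Ikbke, the kinase that phosphorylates Irf3 and Irf7, gave 286 in control cells and 161, 135 and 146 in Fbxw11a, Fbxw11c and Fbxw11d cells. All 3 variant lines lay below the control, with log2 ratios of -0.83 (SD between spots 0.15), -1.08 (SD 0.15) and -0.97 (SD 0.18), and the one in Fbxw11c cells passed 2-fold. With normexp that ratio of Ikbke was -0.84 and the call ended. The other Irf factors gave 0 of 5 in every line, and the 3 enzymes that attach Isg15 gave 0 of 3, lists that are smaller still.

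Other interferon-stimulated genes gave 1, 0 and 4 of 49 past 2-fold, beside 4.45%, 3.88% and 5.75% of all genes compared, and the count in Fbxw11d cells is near that share. Oasl1, a relative of Oasl2 that restrains Irf7 translation, gave 414 in control cells, 1047 in Fbxw11a cells, 795 in Fbxw11c cells and 762 in Fbxw11d cells. It was higher in all variant lines, with log2 ratios of 1.34 (SD between spots 0.096), 0.94 (SD 0.090) and 0.88 (SD 0.12), of which the first passed 2-fold. With median centring Oasl1 passed it in Fbxw11c and Fbxw11d cells too, at 2.02-fold and 2.14-fold higher, and with spike-in scaling in Fbxw11d cells, at 2.76-fold higher. Ifitm1, which hinders virus entry, gave 1769, 1750, 2897 and 3664 in control, Fbxw11a, Fbxw11c and Fbxw11d cells, a log2 ratio of 1.05 in Fbxw11d cells and 1.04 there on a second probe. This lay just past 2-fold, and the ratio of Ifitm1 was 0.97 with normexp, 0.99 with quantile normalization and 0.97 with the authors' normalized values, which ends the call, while with median centring it was 2.41-fold and with spike-in scaling 3.11-fold higher.

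Fbxw11d cells also held the 3 lower genes of this list. Oas1a, an oligoadenylate synthetase, gave 82.3, 64.0, 53.3 and 17.1 in control, Fbxw11a, Fbxw11c and Fbxw11d cells. It was 4.83-fold lower in Fbxw11d cells, a log2 ratio of -2.27 (SD between spots 0.73), and its dimmer probe gave no fold. The signal of 17.1 lay close to the background, so the size of this fold is uncertain. The Oas1a fold in Fbxw11d cells was 2.42 with normexp and 3.21 with spike-in scaling, each past 2-fold. With the mean of its probes it was 2.20, but this mean takes in the dimmer probe as a log2 ratio of 0. The value of 2.20 is thus not a measured fold. Oas2, of the same family, gave 59.5, 60.4, 55.8 and 23.9, and Iigp1, an interferon-inducible GTPase, gave 201, 206, 182 and 70.9. Each was close to its control level in Fbxw11a and Fbxw11c cells or at most 1.54-fold lower, and in Fbxw11d cells Oas2 was 2.49-fold and Iigp1 2.83-fold lower. With spike-in scaling both calls ended, at 1.66-fold for Oas2 and 1.88-fold for Iigp1, and with normexp that of Oas2 ended, at 1.74-fold. Rsad2, the antiviral enzyme viperin, had log2 ratios of 0.033, 0.19 and -0.004 in the variant lines, and Mx1, an antiviral GTPase, was not well above background in any line. Some dimmer probes passed 2-fold where the brightest probe of the gene did not, and these were noticed after their values were seen. They were lower for Gbp5 in Fbxw11a and Fbxw11d cells, with log2 ratios of -1.05 (SD 0.33) and -1.23 (SD 0.36). In Fbxw11d cells the ratios of Mb21d1 and Dtx3l were -1.08 (SD 0.72) and -1.07 (SD 0.77). For Psmb9 in Fbxw11d cells the bound was -1.46.

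**Figure D3:**
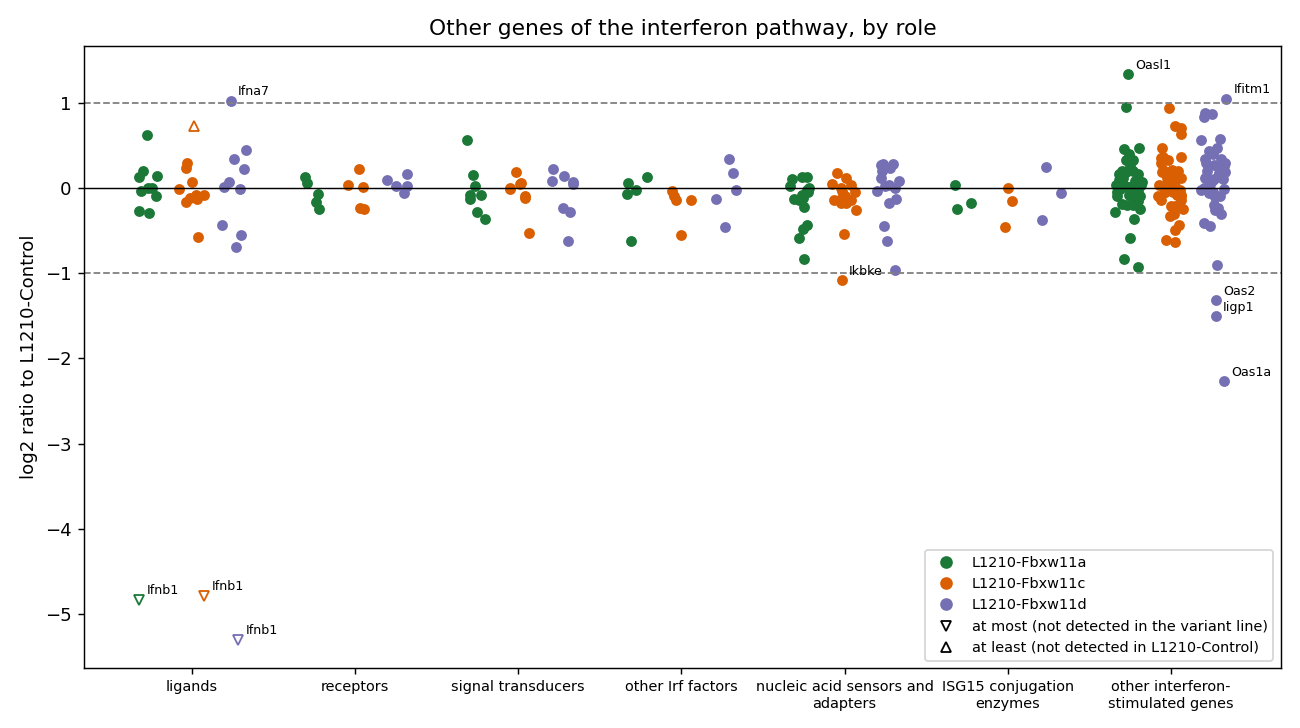
Log2 ratio to L1210-Control (y axis) of the other interferon pathway genes, grouped by role, with 1 point per gene and variant line. Filled points were well above background on both arrays, open triangles are bounds, dashed lines mark 2-fold, and bounds that gave no fold are not drawn. The bounds of Ifnb1 stood at -4.84, -4.79 and -5.30, and the other genes drawn lay between Oas1a in Fbxw11d cells, at -2.27, and Oasl1 in Fbxw11a cells, at 1.34.

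The label of a lymphocytic line was set against marker lists. Of 12 lymphoid markers, 6 were well above background in control cells and 5 on no array, with Cd3e at 1293 there and the B-lineage markers Cd79b, Ebf1 and Rag1 not well above background in any line. The summed lymphoid signal ranged from 1559 in control cells to 1872 in Fbxw11a cells, and most of it was Cd3e. The median log2 ratios of that list were 0.050, 0.11 and 0. Of 11 macrophage and monocyte markers 6 were measured in every line, with sums from 11133 in Fbxw11c cells to 14601 in control cells and with Lyz2 not well above background. Of 8 plasmacytoid dendritic cell markers, which include Bst2 itself, 7 were measured in every line, with sums from 88395 in Fbxw11d cells to 96159 in Fbxw11c cells. Of 12 fibroblast and stromal markers 6 were measured in every line, with sums from 179755 in Fbxw11c cells to 213388 in Fbxw11a cells. Such sums rest mostly on bright markers and do not show that a whole list was level. Over the plasmacytoid list, the median signal was 470 in control, 423 in Fbxw11a, 316 in Fbxw11c and 298 in Fbxw11d cells. In the same order that of the stromal list was 27.2, 36.4, 38.8 and 35.4. For the macrophage list it was 41.7, 24.7, 30.7 and 35.8. Of single markers, chosen after their values were seen, Col1a2, a collagen chain of the stromal list, was higher in Fbxw11a, Fbxw11c and Fbxw11d cells, with log2 ratios of 1.45, 2.10 and 2.05, and it was the one of 8, 7 and 7 stromal markers compared that passed 2-fold. The medians of that list were 0.076, -0.041 and 0.17, with 5, 3 and 5 markers above 0. The 6 macrophage markers compared in Fbxw11c cells were all below control cells, with a median log2 ratio of -0.44, and none passed 2-fold. In Fbxw11a cells 5 of 6 were below, with a median of -0.23, and in Fbxw11d cells 5 of 8 were, with a median of -0.13, where Csf1r, the macrophage growth factor receptor, passed 2-fold at -1.12. Cox6a2 of the plasmacytoid dendritic cell list was lower in Fbxw11c and Fbxw11d cells, with log2 ratios of -1.23 and -1.28, and 5, 5 and 6 of 7 markers of that list were below control cells, with medians of -0.086, -0.095 and -0.19. The part of these markers in the values above was not tested.

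The order and size of the members' ratios were compared over processing settings. In Fbxw11a cells none of the 8 genes changed direction under any setting run, with Ifit3 and Irf7 above 0 and the other 6 below 0 throughout. Leaving out the filter on dim probes, filtering on both arrays and keeping outlier spots left every ratio unchanged and did not test its direction. The changes of direction named with the genes were all in Fbxw11c cells or Fbxw11d cells.

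**Figure D4:**
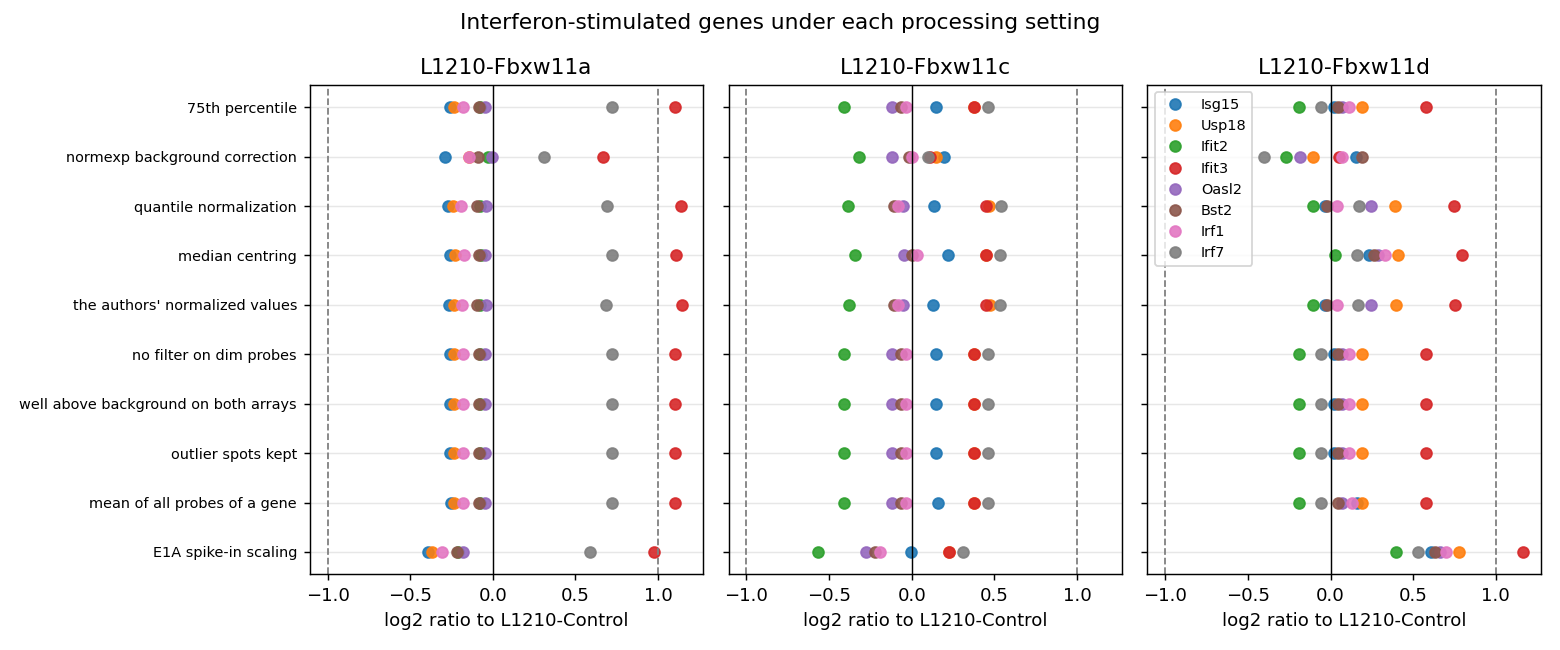
Log2 ratio to L1210-Control (x axis) of the 8 interferon-stimulated genes under each processing setting (y axis), with a panel for each variant line and dashed lines at 2-fold. Ifit3 lies past the right dashed line in Fbxw11a cells except with normexp (0.67) and spike-in scaling (0.97), and the whole set shifts to the right in Fbxw11d cells with spike-in scaling.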

How the data were processed

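Total RNA of 4 L1210 lines was measured on 1 single-colour Agilent mouse array each. The authors deposited the Feature Extraction output (version 10.7.1.1 per the file headers, 9.1 per the labels) with background-corrected signal intensity per spot, and a table of normalized log2 values whose sorted distributions differed by at most 0.193 between arrays, with symbols and mm9 positions. The method of that normalization was not given in the sources used here. From the intensities, log2 values were taken and the 75th percentile of the 59305 gene spots was subtracted on each array (percentiles 620.2, 627.3, 672.5 and 954.2 for control, Fbxw11a, Fbxw11c and Fbxw11d cells), without outlier spots (102 to 167 per array). No gene spot was saturated. Spots of a probe were averaged, and a probe was well above background (62.5% to 68.7% of probes) where at least 0.5 of its spots were. Where only 1 array measured a probe, the fold is a bound against the higher of its dim signal and the lowest signal of fully measured probes (14.5 to 18.1 before scaling). A gene stands by its brightest probe, and 2-fold is the threshold in the study's methods. The spread between spots comes from 399 probes on 10 spots, taking those within 0.5 log2 of the signal. Differences had no replicate check and no p-value was computed.

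The alternatives were normexp (limma 3.58.1, offset 50), quantile normalization, median centring, the authors' values, both other filters on dim probes, outlier spots kept, the mean of a gene's probes, thresholds of 1.5 and 3, and spike-in scaling, which was added after seeing the data. The members and lists were chosen with earlier results of these data known. Named were all members, pathway genes past 2-fold in a line (at most 10), Stat2, Irf9, Ifnar1, Ifnar2, Ifnb1, Mx1, Rsad2 and 1 more that is not reported here, and the 3 genes nearest to the member of widest range. Neighbours of Ifit3 and single marker genes lie outside this rule and were chosen after their values were seen. Whether these arrays read the Fbxw11 constructs was not tested. Python 3.11.15 with pandas 2.3.3 and numpy 2.4.6 was used, and R 4.3.3 for limma.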

Additional observations from a re-analysis of the deposited data

How the results depend on the processing

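The count of interferon-stimulated genes past 2-fold was 1, 0 and 0 of 8 in Fbxw11a, Fbxw11c and Fbxw11d cells. It was the same with quantile normalization, median centring, the authors' normalized values and the mean of a gene's probes. That mean can change only Isg15 and Irf1, which have more than 1 probe. A filter on both arrays and outlier spots kept left every member ratio at its main value, so they do not test the count. Without a filter on dim probes Ifit1 enters, and it was 1, 0 and 0 of 9. In Fbxw11a cells it was 0 with normexp, 0 with spike-in scaling (added after seeing the data), 0 at 3-fold and 2 at 1.5-fold, and in Fbxw11d cells it was 1 with spike-in scaling. Other pathway genes past 2-fold numbered 2, 2 and 6. With normexp the counts were 1 in Fbxw11c cells and 3 in Fbxw11d cells, where 1.20% and 2.51% of all genes passed. Without a filter on dim probes they were 6, 4 and 10 of 110 in the 3 lines, where 8.16%, 7.48% and 11.5% of all genes passed. A filter on both arrays leaves Ifnb1 out. With it they were 1 in Fbxw11a cells and 1 in Fbxw11c cells, where 2.69% and 2.20% did. At 1.5-fold they were 9, 9 and 14, where 10.8%, 9.87% and 14.7% of all genes passed, and at 3-fold 1, 1 and 2, where 1.99%, 1.69% and 2.04% did. With median centring they were 3 in Fbxw11c cells and 9 in Fbxw11d cells, where 3.90% and 5.33% of all genes passed. With spike-in scaling they were 12 of 101 in Fbxw11d cells and 3 of 99 in Fbxw11a cells, where 12.2% and 4.39% did. Over all genes the share in Fbxw11d cells thus rose as well, from 5.75%. Beyond what fewer or more genes tested and the threshold itself account for, the cause was not tested.

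Of 24 member ratios, 14 moved by more than 1 SD between spots with spike-in scaling, 4 with normexp and 4 with median centring. The mean of probes, which can alter only Isg15 and Irf1, moved 1. None moved with quantile normalization or the authors' values. None moved with either other filter on dim probes or with outlier spots kept, but these left every ratio identical to its main value. Those settings are therefore no check of the ratios. The sign turned for 4 with median centring and for 3 each with normexp, quantile normalization, the authors' values and spike-in scaling. The median of all genes moved to 0.61 in Fbxw11d cells with spike-in scaling and to 0.24 with median centring. Calls over all genes numbered 798, 688 and 1060, and they were 249, 212 and 462 with normexp, 2004, 1837 and 2829 without a filter, 444, 361 and 723 with the filter on both arrays, and 2243 in Fbxw11d cells with spike-in scaling. Irf7 and the dimmer Irf1 probe lie near the background, and Ifit3 and Usp18 are also dim, so a spread between spots of 0.25 to 0.39 stands beside the ratios of Ifit3 and of up to 0.81 beside those of Irf7. No paired analysis was possible because each line has 1 array.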
